A study of Homo sapiens with 9 samples.

Results

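Aminoacyl-tRNA synthetases join each amino acid to its own transfer RNA, the step in which the genetic code is read into protein chemistry. Human cells make separate nuclear-encoded enzymes for the ribosomes of the cytosol and for those of the mitochondria, while *GARS1* and *KARS1* each serve both places. Several cytosolic enzymes assemble into the multi-synthetase complex, and many of the cytosolic genes are known targets of ATF4, the transcription factor that is made when amino acids or charged tRNA run short.

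The 36 synthetase genes described here were taken by name and not by their expression. Earlier results of these data were known when the other gene lists and these 36 genes were chosen. They comprise 20 cytosolic enzymes, whose symbols end in 1 together with *FARSA*, *FARSB* and *TARS3*, and 16 mitochondrial enzymes, whose symbols end in 2. They belong to the 27856 genes with a usable entry in the tables. Their expression was measured by RNA-seq in DU145, an established human prostate cancer cell line, as FPKM, fragment counts scaled to the length of the transcript and to the total of the library, summed over the RefSeq transcripts of a gene. All 9 libraries have the genotype label WT, and the cells of all of them carry a hairpin: a scrambled shRNA in 3 control libraries, *FZD6* shRNA1 in 3 and *FZD6* shRNA2 in 3. *FZD6* encodes a Frizzled receptor for Wnt ligands. The study describes lentiviral hairpin vectors for constitutive and for doxycycline-inducible expression. The vector used for these libraries, a clonal or pooled origin of the cells and an age of the cultures are not given in the sources used here. The labels call the libraries triplicates without naming separate cultures, so the p-values measure the spread between these libraries, which may be technical. All 36 genes reached the filter, a 9-library mean of 1 FPKM or more, and were among the 12507 genes tested by limma on log2(FPKM + 1), with Benjamini-Hochberg adjustment over all 12507 and a threshold of 0.05. A gene past this threshold is said to have risen or fallen. Fold changes on this scale understate the change of genes expressed at a few FPKM.

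The targeted gene was lower in every knockdown library. *FZD6* was expressed at 20.9, 20.5 and 20.04 FPKM in control cells, at 9.47, 10.2 and 9.80 FPKM with shRNA1 and at 7.84, 8.79 and 7.69 FPKM with shRNA2. *FZD6* expression was 52.1% lower with shRNA1 and 60.5% lower with shRNA2, and the pooled log2 change was −1.12 ± 0.0832 (SE), limma adjusted p = 0.000270. A two-sided exact permutation test returned p = 0.0119, and with 6 and 3 libraries no smaller p is possible. Depth, estimated from the confidence bounds that accompany FPKM, was 31.2 to 39.1 M fragments per library. The epithelial keratin genes *KRT8* and *KRT18* were expressed at a mean of at least 207 FPKM in each group. Of the leukocyte markers, *PTPRC* and *CD3E* were listed at 0 in all 9 libraries, whereas *CD68*, a lysosomal protein gene, rose from a mean of 17.4 FPKM in control cells to 25.4 FPKM with shRNA2. Of 4 epithelial markers *EPCAM* rose and *CDH1* fell in the knockdown libraries. In bulk RNA, fewer cells of a kind and less RNA per cell cannot be told apart, and the part of these markers in the results was not tested. The fibroblast and endothelial markers reached at most 0.455 FPKM in any library.

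The cytosolic enzymes were the more highly expressed set. In control cells the 20 cytosolic genes together gave 2369 ± 9.41 FPKM and the 16 mitochondrial genes 234 ± 4.16 FPKM (SD, n = 3), and the median gene of each set was expressed at 111 and 10.1 FPKM. FPKM are scaled for transcript length, so these levels can be compared between genes. Among cytosolic genes *TARS1*, the threonyl enzyme, was the highest at 331 ± 1.22 FPKM (SD, n = 3), ahead of *AARS1* at 300.4 ± 3.93 FPKM (SD, n = 3) and *GARS1* at 268 ± 2.76 FPKM (SD, n = 3). *VARS1*, *WARS1* and *EPRS1* lay at 131, 132 and 131 FPKM and did not differ from each other beyond the spread of their libraries (SDs of 3.27, 2.24 and 2.83 FPKM). The lowest was *TARS3*, a second cytosolic threonyl enzyme, at 5.10 ± 0.117 FPKM (SD, n = 3). The most highly expressed mitochondrial gene was *IARS2*, the isoleucyl enzyme, at 58.1 ± 1.80 FPKM (SD, n = 3), and the lowest was *MARS2*, the methionyl enzyme, at 2.79 ± 0.254 FPKM (SD, n = 3). Pairs of 1 cytosolic and 1 mitochondrial gene were formed for 15 amino acids. *EPRS1* counted for both glutamate and proline, and *TARS1*, not *TARS3*, for threonine. In control cells the cytosolic gene was expressed 2.19 times (isoleucine) to 58.8 times (methionine) as highly as the mitochondrial one, with a median ratio of 9.59.

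**Figure D1:**
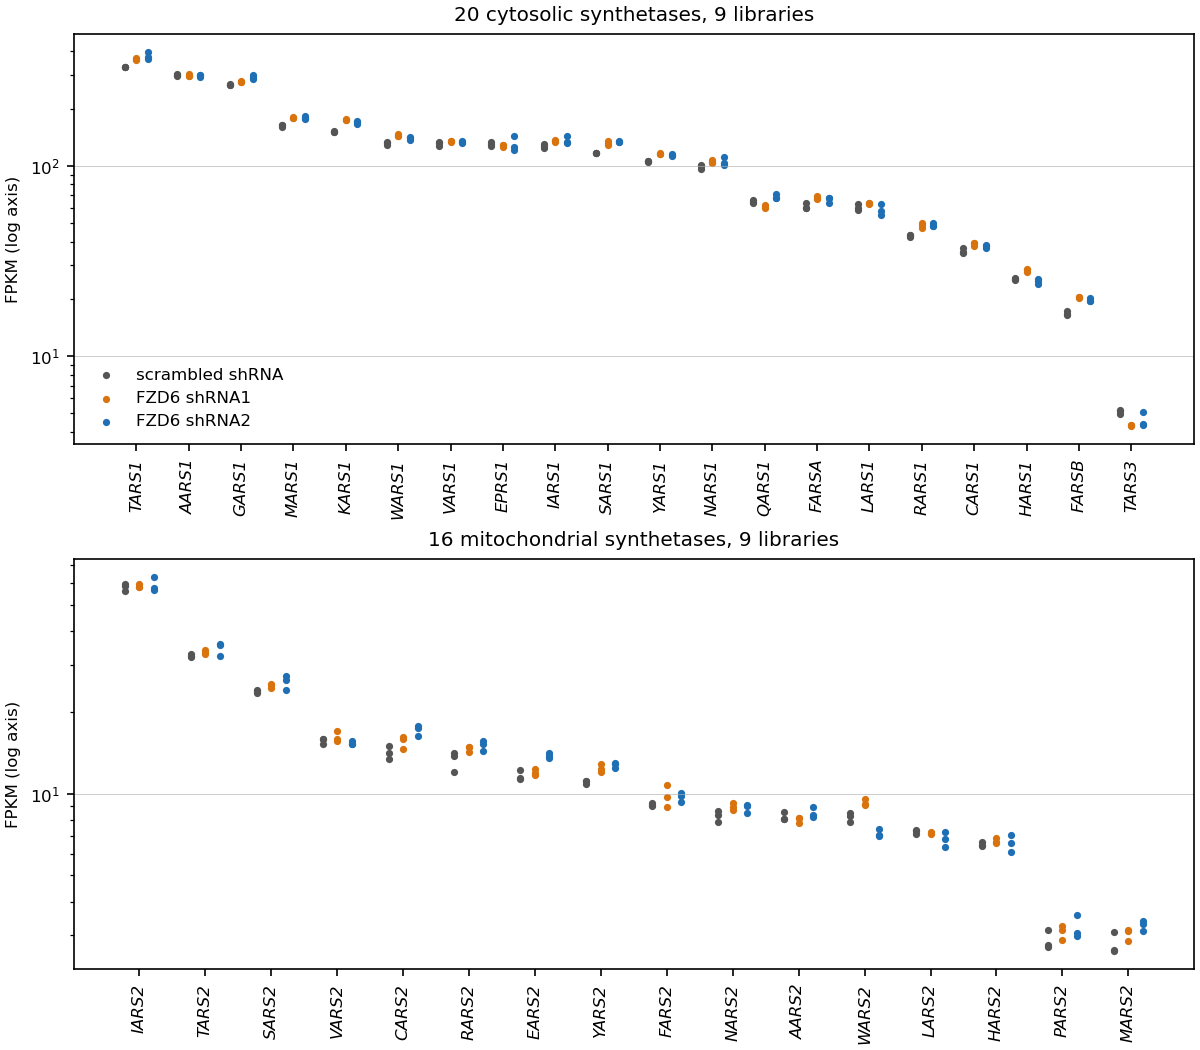
Expression of the 36 synthetase genes (FPKM, log axis), cytosolic above and mitochondrial below, ordered by the control mean, with 1 point per library. Cytosolic control means span 5.10 to 331 FPKM and mitochondrial ones 2.79 to 58.1 FPKM, and the 3 groups of libraries lie close together for every gene.

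The first comparison asked which synthetases changed with *FZD6* knockdown, with the 6 knockdown libraries pooled against the 3 control libraries. The fit took the 6 as replicates of 1 condition, though they carry 2 different shRNAs, and the control cells carry only 1 scrambled shRNA. Effects of a hairpin or of a line therefore cannot be told apart from those of *FZD6* loss. Of the 36 genes, 12 rose and 1 fell, where 14.4% of all tested genes rose and 7.24% fell. *KARS1*, *RARS1*, *SARS1* and *YARS1* were called in all 20 alternative settings as well. The rises were small, from 7.30% (*CARS1*) to 19.0% (*FARSB*) in mean FPKM, and lay mostly on the cytosolic side. Of 20 cytosolic genes 10 rose (*CARS1*, *FARSA*, *FARSB*, *KARS1*, *MARS1*, *RARS1*, *SARS1*, *TARS1*, *WARS1* and *YARS1*), and of 16 mitochondrial genes 2 rose (*CARS2* and *YARS2*). The gene that fell was *TARS3*. The log2 fold change was positive for 30 of the 36 genes, and its median was 0.10 over the cytosolic genes, 0.09 over the mitochondrial genes and 0.03 over all tested genes. Whether the compartments differ was not tested. Their levels differ: the median control expression was 111 FPKM over the cytosolic, 10.1 FPKM over the mitochondrial and 9.82 FPKM over all tested genes. Under a filter of 5 FPKM, 20.8% of all tested genes rose, with 10 cytosolic and 3 mitochondrial genes. Genes of like level were not compared. By the fold of the catalytic domain, 7 of 18 class I and 5 of 17 class II enzymes rose, with *EPRS1*, which holds a domain of each, in neither count. All 6 knockdown libraries lay above all 3 control libraries for 15 of the 36 genes (12 cytosolic and 3 mitochondrial), against 16.4% of all tested genes. They lay below for 0 of the 36, against 9.46% of all tested genes. Of all genes called, 66.5% rose, a share that was 53.8% once each library's trend with transcript length was removed and 50.7% after quantile normalization, and the counts of members that rose were then 10 and 6.

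**Figure D2:**
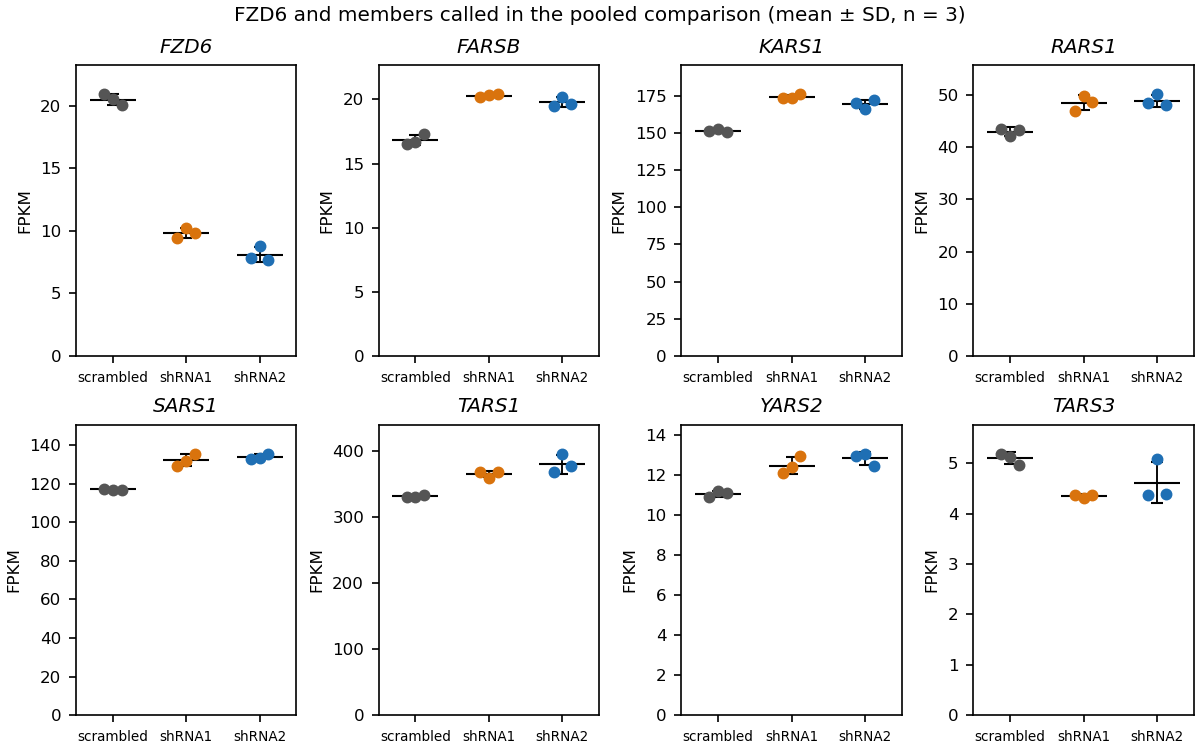
Expression of *FZD6* and of 7 synthetase genes called in the pooled comparison (FPKM, axes from 0), with 1 point per library and bars for the mean ± SD of 3 libraries. *FARSB*, *KARS1*, *RARS1*, *SARS1*, *TARS1* and *YARS2* lie higher in all 6 knockdown libraries than in all 3 control libraries, while 1 shRNA2 library of *TARS3* lies at the control level.

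Within the multi-synthetase complex, which holds 7 of the cytosolic genes, 3 rose: *KARS1*, *RARS1* and *MARS1*. Of all tested genes 14.4% rose. In the control libraries *KARS1* stood at 151, 153 and 150.3 FPKM, in the shRNA1 libraries at 174, 174 and 176 FPKM and in the shRNA2 libraries at 170.1, 166 and 172 FPKM. Every knockdown library exceeded every control library for *KARS1* (hg38 chr16:75627724-75647665), the lysyl enzyme, and the log2 change was 0.18 ± 0.0227 (SE), limma adjusted p = 0.00170. Values of *RARS1* were 43.5, 42.1 and 43.4 FPKM in control cells, compared with 47.00, 49.9 and 48.7 FPKM under shRNA1 and 48.5, 50.1 and 48.1 FPKM under shRNA2. For *RARS1* (hg38 chr5:168486471-168519301), the arginyl enzyme, the groups again did not overlap, and the log2 change was 0.18 ± 0.0261 (SE), limma adjusted p = 0.00300. *MARS1*, the methionyl enzyme, rose by 10.4% to 179.9 ± 2.31 FPKM (SD, n = 6), against 163 ± 2.25 FPKM (SD, n = 3) in control cells, with an adjusted p of 0.00244 by limma. The other 4 complex genes did not pass the test in the pooled comparison. *IARS1*, the isoleucyl enzyme, was higher in 6 of 6 knockdown libraries than in every control library but missed the threshold (log2 change 0.09 ± 0.0300 (SE), limma adjusted p = 0.0613). *EPRS1*, which joins the glutamyl and prolyl enzymes in 1 chain, *LARS1*, the leucyl enzyme, and *QARS1*, the glutaminyl enzyme, had log2 fold changes of −0.02, 0.01 and −0.01. Of the non-enzymatic complex scaffolds, *AIMP1* and *EEF1E1* rose by 12.9% and 23.8% (adjusted p = 0.0351 and 0.00823 by limma), and *AIMP2* had a log2 fold change of 0.18 with an adjusted p of 0.0596.

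Outside the complex, 7 of 13 cytosolic genes rose and 1 fell, where 14.4% of all tested genes rose and 7.24% fell. The largest log2 fold change of the family belonged to *FARSB* (hg38 chr2:222566899-222656092), the beta subunit of the phenylalanyl enzyme. With the scrambled shRNA *FARSB* measured 16.5, 16.7 and 17.3 FPKM, with shRNA1 20.2, 20.4 and 20.4 FPKM and with shRNA2 19.5, 20.2 and 19.6 FPKM. Its control and knockdown libraries did not overlap, and it changed by 0.24 ± 0.0252 (SE), limma adjusted p = 0.00102. *FARSA*, the alpha subunit, with which FARSB forms a tetramer, rose by 10.04% (adjusted p = 0.0172 by limma). RefSeq divides *FARSB* into a coding transcript, with 13.6 ± 0.438 FPKM in control, 16.2 ± 0.577 with shRNA1 and 14.7 ± 1.17 with shRNA2 (SD, n = 3), and a noncoding one with 3.23 ± 0.753, 4.16 ± 0.661 and 5.07 ± 1.52 FPKM. With coding transcripts alone *FARSB* missed the threshold, at 0.17 on the log2 scale with an adjusted p of 0.0562 by limma. *SARS1* was expressed at 117.4, 116.7 and 116.9 FPKM in control cells, at 129, 132 and 136 FPKM with shRNA1 and at 133, 133 and 135 FPKM with shRNA2. *SARS1* (hg38 chr1:109213893-109238182), the seryl enzyme, thus had a narrow control range below all 6 knockdown libraries, and it changed by 0.18 ± 0.0212 (SE), limma adjusted p = 0.00144. In the control libraries *TARS1* stood at 329.9, 330.2 and 332 FPKM, in the shRNA1 libraries at 368, 359 and 367 FPKM and in the shRNA2 libraries at 367, 395 and 376 FPKM. The lowest knockdown value of *TARS1* was again above the highest control value, and the log2 change was 0.17 ± 0.0300 (SE), limma adjusted p = 0.00622, which was 0.04 (limma adjusted p = 0.384) after quantile normalization. The rises of *CARS1* (cysteine), *WARS1* (tryptophan) and *YARS1* (tyrosine) were 7.30%, 8.11% and 8.37%, and *CARS1* was called in 9 of 20 alternative settings. *NARS1* (asparagine) was above the control range in 6 of 6 knockdown libraries with an adjusted p of 0.0936 by limma, while *AARS1* (alanine) and *VARS1* (valine) had log2 fold changes of −0.01 and 0.03. Values of *TARS3* were 5.19, 5.13 and 4.97 FPKM in control cells, compared with 4.37, 4.31 and 4.37 FPKM under shRNA1 and 4.36, 5.08 and 4.40 FPKM under shRNA2. *TARS3* fell by 12.02% (log2 change −0.15 ± 0.0459 (SE), limma adjusted p = 0.0421), but 1 shRNA2 library lay within the control range, and the fall passed the test in 8 of 19 alternative settings. Across the 9 libraries *TARS3* rested on an implied 512 to 717 fragments per library, and *AARS1* on 34713 to 43198.

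Of the 2 genes that serve both locations, *KARS1* rose and *GARS1* missed the threshold in the pooled comparison. *KARS1* yields its mitochondrial and cytosolic proteins from separate transcripts. The transcript of the cytosolic form was expressed at 129 ± 1.68 FPKM in control, 148 ± 1.65 FPKM with shRNA1 and 145 ± 3.39 FPKM with shRNA2 (SD, n = 3). That of the mitochondrial form was expressed at 22.5 ± 1.61, 26.1 ± 0.274 and 24.2 ± 0.640 FPKM, so both forms had higher means in knockdown cells and the cytosolic form made up most of the gene's expression in each group. Single transcripts were not tested. With the scrambled shRNA *GARS1* measured 265, 271 and 267 FPKM, with shRNA1 278, 277 and 279 FPKM and with shRNA2 286, 303 and 294 FPKM. All 6 knockdown values of *GARS1*, the glycyl enzyme, were above all 3 control values, and the pooled log2 change was 0.10 ± 0.0316 (SE), limma adjusted p = 0.0619. The gene rose with shRNA2 (log2 change 0.14 ± 0.0246 (SE), limma adjusted p = 0.00649) while the value with shRNA1 was 0.06 ± 0.0246 (SE), limma adjusted p = 0.155. The difference between the shRNAs for *GARS1* had an adjusted p of 0.0983 by limma.

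Promoter sequence was examined because ATF4 is known to bind, with a C/EBP partner, to composite elements of the form TGATGNAA. Windows of 250 bases before to 50 bases after the start, from RefSeq (GRCh38.p14), were at hand for 30 of the 36 genes, in 39 windows; *AARS2*, *VARS1*, *LARS1*, *YARS1*, *VARS2* and *TARS3* had none. Both strands were searched. The form TGATGCAA, or TTGCATCA on the other strand, is held by 0.866% of all 35116 windows and by the windows of 6 synthetase genes, all cytosolic. They are shown with up to 30 bases on each side, and at most 30 past the start, on the gene's strand from 5′ to 3′, with the element in capitals.
AARS1, chr16:70289656-70289723, minus strand: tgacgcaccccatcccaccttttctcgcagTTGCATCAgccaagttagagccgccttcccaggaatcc
CARS1, chr11:3057394-3057455, minus strand: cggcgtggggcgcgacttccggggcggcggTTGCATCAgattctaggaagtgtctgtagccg
IARS1, chr9:92293673-92293740, minus strand: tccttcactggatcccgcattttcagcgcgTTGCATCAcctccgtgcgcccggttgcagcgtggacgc
MARS1, chr12:57488034-57488097, plus strand: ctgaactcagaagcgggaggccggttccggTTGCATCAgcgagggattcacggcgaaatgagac
NARS1, chr18:57621807-57621852, minus strand: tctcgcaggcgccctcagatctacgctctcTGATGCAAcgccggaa
TARS1, chr5:33440937-33440994, plus strand: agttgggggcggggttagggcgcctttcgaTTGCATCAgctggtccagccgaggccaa
Counted from the start, the element begins at position −2 in *CARS1*, −13 in *IARS1*, −4 in *MARS1*, 15 in *NARS1*, 3 in *TARS1* and −187 in *AARS1*. In *TARS1* that start lies downstream of the gene's first base (chr5:33440696). Of the 6 genes, *CARS1*, *MARS1* and *TARS1* rose and *AARS1*, *IARS1* and *NARS1* did not pass the test, with a median log2 fold change of 0.10. Of the 10 other cytosolic genes with a window, 6 rose, with a median of 0.12. The looser form TGATGNAA, which contains the first, is held by 3.62% of all windows and in addition by *GARS1* and *YARS2*. The E-box CACGTG, in 7.26% of all windows, occurs in *CARS2*, *EARS2*, *IARS1* and *MARS2*, and AAGATGGC, the core of the YY1 element, in 2.89% of all windows and in *FARSA*, *KARS1*, *NARS1*, *SARS2*, *WARS2* and *YARS2*. CCGGAAG, in 10.3% of all windows, occurs in 16 of the 30 genes, *HARS1* and *HARS2* among them. CCAAT and CCACG, in 34.6% and 38.1% of all windows, occur in 16 and 15 genes. GCATGCGC and TATAAA, in 3.05% and 11.5% of all windows, occur in 2 genes each, and TGACGTCA, in 1.85%, in 0. A match describes these letters and does not show binding. The list of cytosolic ATF4 targets held 13 genes, *AARS1*, *CARS1*, *EPRS1*, *GARS1*, *IARS1*, *LARS1*, *MARS1*, *NARS1*, *SARS1*, *TARS1*, *VARS1*, *WARS1* and *YARS1*. Of these 6 rose and of the other 7 cytosolic genes 4 rose, where 14.4% of all tested genes rose.

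Most mitochondrial genes did not pass the test. Of 16 genes, 2 rose (12.5%, against 14.4% of all tested genes), 0 fell, and 14 had a positive log2 fold change. *YARS2* was expressed at 10.9, 11.2 and 11.1 FPKM in control cells, at 12.1, 12.4 and 12.9 FPKM with shRNA1 and at 12.9, 13.1 and 12.5 FPKM with shRNA2. *YARS2* (hg38 chr12:32746544-32755897), the tyrosyl enzyme, was above the control range in all 6 knockdown libraries, and the log2 change was 0.18 ± 0.0287 (SE), limma adjusted p = 0.00441. In the control libraries *CARS2* stood at 13.5, 14.2 and 15.1 FPKM, in the shRNA1 libraries at 16.2, 14.7 and 15.9 FPKM and in the shRNA2 libraries at 17.8, 16.3 and 17.5 FPKM. The control and knockdown ranges of *CARS2*, the cysteinyl enzyme, overlapped, and it changed by 0.19 ± 0.0581 (SE), limma adjusted p = 0.0467, a call that was kept in 6 of 20 alternative settings. *RARS2* (arginine) and *SARS2* (serine) did not overlap between the groups but had adjusted p-values of 0.0508 and 0.108 by limma. Values of *IARS2* were 56.1, 59.5 and 58.6 FPKM in control cells, compared with 59.7, 58.2 and 58.1 FPKM under shRNA1 and 57.7, 63.05 and 56.6 FPKM under shRNA2. The most highly expressed mitochondrial gene thus overlapped between the groups, and the log2 change was 0.02 ± 0.0359 (SE), limma adjusted p = 0.727. With the scrambled shRNA *MARS2* measured 2.64, 3.08 and 2.64 FPKM, with shRNA1 2.87, 3.11 and 3.14 FPKM and with shRNA2 3.32, 3.11 and 3.38 FPKM. The lowest one was above the control maximum in 5 of 6 knockdown libraries and had a log2 change of 0.14 ± 0.0534 (SE), limma adjusted p = 0.105. Counting error is larger at this level: *MARS2* rested on an implied 275 to 406 fragments per library. The remaining genes without a call, *AARS2*, *FARS2*, *HARS2*, *LARS2*, *NARS2*, *PARS2*, *TARS2* and *VARS2*, had pooled log2 fold changes from −0.05 (*LARS2*) to 0.10 (*PARS2*).

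Each shRNA was next compared with control on its own. These comparisons share the 3 control libraries, so the overlap of their calls is a description. How many of all tested genes rose with both shRNAs, or were called in no comparison, was not counted. With shRNA1, 13 genes rose and 1 fell, where 12.8% of all tested genes rose and 7.2% fell. With shRNA2, 13 rose and 1 fell, where 16% rose and 11.4% fell. Of the cytosolic genes 11 rose with shRNA1 and 10 with shRNA2, and of the mitochondrial genes 2 and 3. The 10 genes that rose with both were *FARSA*, *FARSB*, *KARS1*, *MARS1*, *RARS1*, *SARS1*, *TARS1*, *WARS1*, *YARS1* and *YARS2*. *CARS1*, *HARS1* and *WARS2* rose with shRNA1 alone, and *CARS2*, *EARS2* and *GARS1* with shRNA2 alone. The genes that fell were *TARS3* with shRNA1 (log2 change −0.19 ± 0.0494 (SE), limma adjusted p = 0.0336) and *WARS2* with shRNA2. In no comparison were 18 of the 36 called, 6 cytosolic and 12 mitochondrial.

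**Figure D3:**
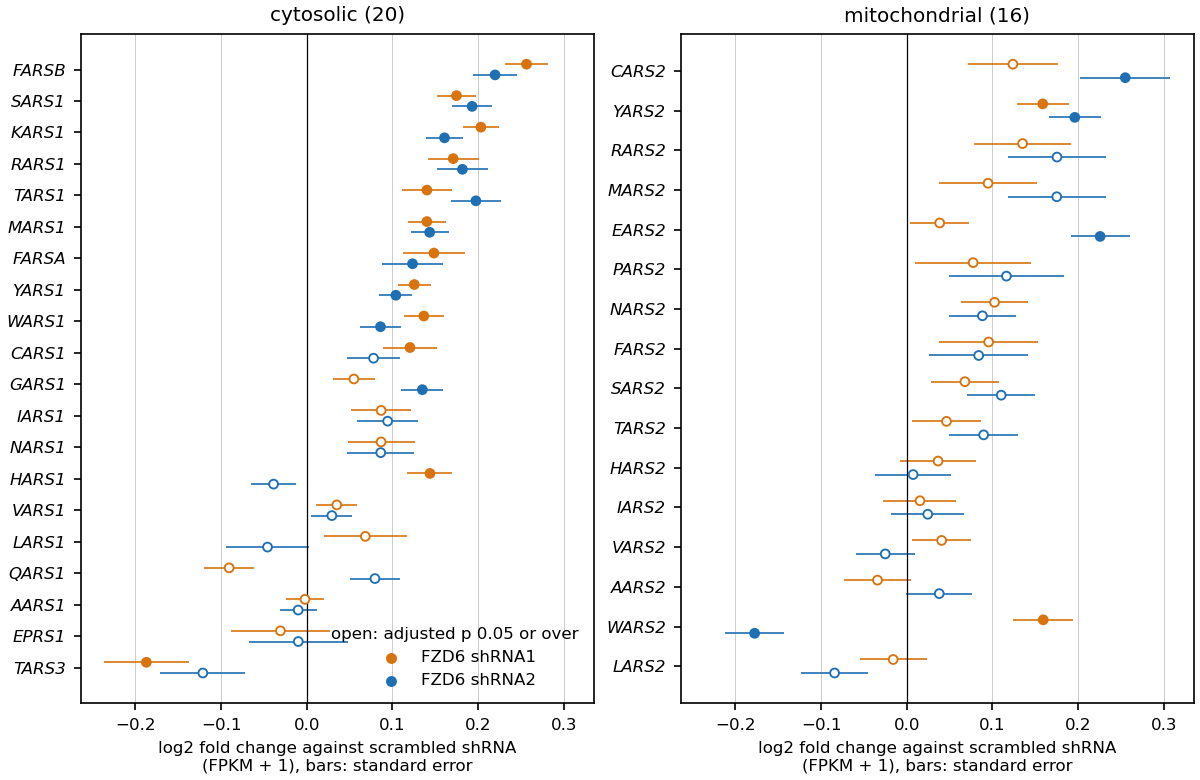
Log2 fold change of each synthetase gene against the scrambled shRNA with shRNA1 and with shRNA2 (x axis, log2(FPKM + 1) scale), cytosolic left and mitochondrial right, ordered by the pooled fold change. Bars are standard errors from limma over 3 libraries a group, and filled points have an adjusted p under 0.05. Filled points crowd the top of the cytosolic panel, and the points of *WARS2*, *HARS1*, *QARS1* and *EARS2* lie apart between the shRNAs.

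The shRNAs differed from each other at 4 synthetase genes in a direct comparison, 2 higher and 2 lower with shRNA2, where 1.96% of all tested genes were higher and 5.05% lower. *FZD6* was also lower with shRNA2 than with shRNA1, and this log2 difference was −0.25 ± 0.0487 (SE), limma adjusted p = 0.0214. *WARS2* (hg38 chr1:119031216-119140672), the mitochondrial tryptophanyl enzyme, moved in opposite directions. *WARS2* was expressed at 8.27, 8.47 and 7.89 FPKM in control cells, at 9.09, 9.56 and 9.20 FPKM with shRNA1 and at 6.97, 7.40 and 7.05 FPKM with shRNA2. All 3 shRNA1 values were above, and all 3 shRNA2 values below, every control value. *WARS2* rose with shRNA1 (log2 change 0.16 ± 0.0348 (SE), limma adjusted p = 0.0181) and fell with shRNA2 (log2 change −0.18 ± 0.0348 (SE), limma adjusted p = 0.00851). The difference was −0.34 ± 0.0348 (SE), limma adjusted p = 0.00155, and it passed the test in 20 of 20 alternative settings. In the control libraries *HARS1* stood at 25.6, 25.4 and 25.3 FPKM, in the shRNA1 libraries at 27.8, 28.6 and 28.2 FPKM and in the shRNA2 libraries at 23.96, 24.8 and 25.4 FPKM. *HARS1* (hg38 chr5:140673905-140691370), the cytosolic histidyl enzyme, had its 3 shRNA1 values above the other 6 libraries and rose there (log2 change 0.14 ± 0.0262 (SE), limma adjusted p = 0.00968). With shRNA2 its log2 fold change was −0.04 ± 0.0262 (SE), limma adjusted p = 0.311, and the shRNAs differed by −0.18 ± 0.0262 (SE), limma adjusted p = 0.00645, again in 20 of 20 settings.

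*HARS1* and its mitochondrial partner *HARS2* are transcribed in opposite directions from neighbouring starts, at 140691370 and 140691455 of chromosome 5 (GRCh38.p14). The shared promoter region is shown on the plus strand, from 30 bases past one start to 30 bases past the other, with the 84 bases between the starts in capitals.
HARS1 and HARS2, chr5:140691341-140691484: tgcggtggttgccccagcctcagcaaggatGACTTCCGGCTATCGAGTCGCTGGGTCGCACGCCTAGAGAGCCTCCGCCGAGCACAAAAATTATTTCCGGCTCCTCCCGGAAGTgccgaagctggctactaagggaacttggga
*HARS2* did not pass the test in any comparison, at 6.52 ± 0.126 FPKM (SD, n = 3) in control, 6.72 ± 0.148 FPKM (SD, n = 3) for shRNA1 and 6.57 ± 0.470 FPKM (SD, n = 3) for shRNA2. Its difference between the shRNAs was −0.03 ± 0.0448 (SE), limma adjusted p = 0.760, and the ratio of *HARS1* to *HARS2* was 3.90 ± 0.0965 in control, 4.20 ± 0.0448 with shRNA1 and 3.77 ± 0.159 with shRNA2 (SD, n = 3).

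Both other genes were higher with shRNA2. Values of *EARS2* were 11.3, 12.2 and 11.5 FPKM in control cells, compared with 11.9, 12.3 and 11.8 FPKM under shRNA1 and 13.8, 14.1 and 13.5 FPKM under shRNA2. The 3 shRNA2 values of *EARS2* (hg38 chr16:23520754-23557375), the mitochondrial glutamyl enzyme, lay above the other 6 libraries, and the difference between the shRNAs was 0.19 ± 0.0344 (SE), limma adjusted p = 0.0174. Most of this gene's FPKM was assigned to a noncoding RefSeq transcript, 9.89 ± 0.169 FPKM in control, 10.2 ± 0.242 with shRNA1 and 11.9 ± 0.555 with shRNA2 (SD, n = 3). A coding transcript had 1.72 ± 0.220, 1.83 ± 0.317 and 1.88 ± 0.218 FPKM, and with coding transcripts alone the difference was 0.04 with an adjusted p of 0.862. With the scrambled shRNA *QARS1* measured 66.4, 63.9 and 64.8 FPKM, with shRNA1 60.9, 59.8 and 62.4 FPKM and with shRNA2 71.2, 67.6 and 67.6 FPKM. For *QARS1* the shRNA1 libraries lay below and the shRNA2 libraries above the 3 control libraries. Neither shRNA passed the test against control (log2 fold changes −0.09 and 0.08, adjusted p = 0.0646 and 0.0793 by limma), while the difference between them was 0.17 ± 0.0293 (SE), limma adjusted p = 0.0135. The call was lost without shRNA1 replicate 1 (limma adjusted p = 0.0560) and without shRNA1 replicate 2 (limma adjusted p = 0.0598).

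**Figure D4:**
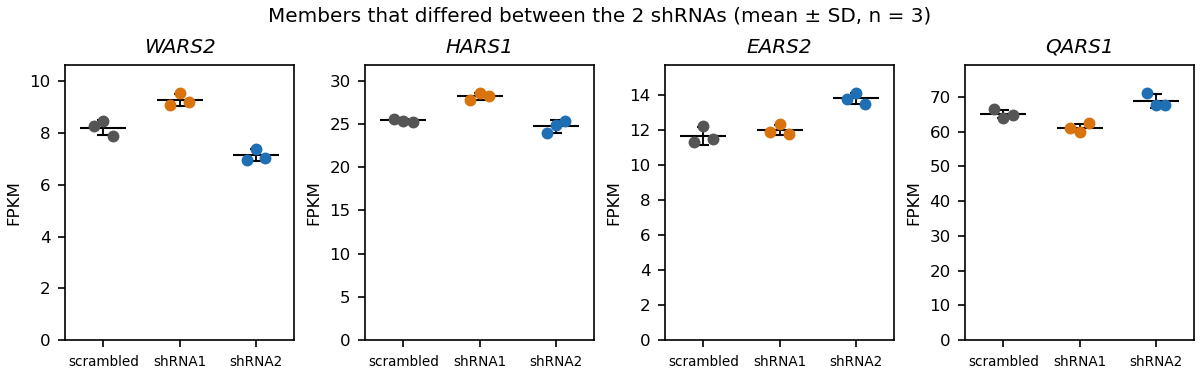
Expression of the 4 synthetase genes that differed between the shRNAs (FPKM, axes from 0), with 1 point per library and bars for the mean ± SD of 3 libraries. *WARS2* and *QARS1* lie on opposite sides of the control libraries with the 2 shRNAs, *HARS1* is higher with shRNA1 and *EARS2* with shRNA2.

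The balance of the compartments moved little. The summed cytosolic expression was 2525 ± 11.6 FPKM with shRNA1 and 2545 ± 39.9 FPKM with shRNA2, and the summed mitochondrial expression was 244 ± 2.24 FPKM and 248 ± 1.10 FPKM (SD, n = 3). All 6 knockdown sums exceeded all 3 control sums in both compartments. The ratio of the sums was 10.1 ± 0.162 in control, 10.3 ± 0.0557 with shRNA1 and 10.3 ± 0.115 with shRNA2, and its ranges overlapped. Over the 15 pairs by amino acid, which leave out *TARS3*, the pooled log2 fold change was larger in the cytosolic gene for 9 and in the mitochondrial gene for 6. The tryptophan pair differed most between the shRNAs, with *WARS1* over *WARS2* at 16.1 ± 0.822 in control, 15.6 ± 0.5265 with shRNA1 and 19.6 ± 0.680 with shRNA2.

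The genes that act beside the synthetases were followed as a list of 23, of which 9 rose and 1 fell in the pooled comparison, with a median log2 fold change of 0.09. Of all tested genes 14.4% rose and 7.24% fell, with a median of 0.03. The listed genes, complex scaffolds included, were not compared with genes of like transcript length. Over all tested genes with a length the log2 fold change fell with length (Spearman's rho −0.445), and the part of length in these changes was not tested. On the side of delivery to the ribosome, 3 of 4 cytosolic elongation factor 1 genes rose: *EEF1A1*, which carries charged tRNA, and *EEF1B2* and *EEF1G*, of its exchange factor, by 12.9%, 19.2% and 11.1%. Both mitochondrial factors rose, *TUFM* by 8.50% and *TSFM* by 10.4%. *ELAC2*, which trims tRNA ends, rose by 6.26%, and *AARSD1*, an editing protein for mischarged tRNA, by 14.5%. Of the 4 genes of the mitochondrial amidotransferase and formylase and the 2 of the selenocysteine route, 0 passed the test in either direction by limma at the adjusted threshold. Uncharged tRNA is sensed by the kinase GCN2, encoded by *EIF2AK4*, with its activator GCN1. *EIF2AK4* had a log2 change of −0.01 ± 0.0374 (SE), limma adjusted p = 0.863, and *GCN1*, at 26.4 ± 0.665 FPKM (SD, n = 3) in control cells, fell to 21.01 ± 1.12 FPKM (SD, n = 6) (log2 change −0.32 ± 0.0452 (SE), limma adjusted p = 0.00260).

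Among *ATF4* and 11 of its known targets outside the family, 7 rose and 0 fell. The median log2 fold change over the 12 was 0.13. Over all tested genes the shares were 14.4% and 7.24% and the median was 0.03. These 12 were not compared with genes of like transcript length or level. *ATF4* itself rose by 10.4% (adjusted p = 0.0256 by limma), as did *ASNS*, the asparagine synthetase, by 15.7% and *DDIT3*, which encodes the stress factor CHOP, by 25.9%. *DDIT3* was 36.2% higher with shRNA1 and 15.5% higher with shRNA2, and the log2 difference between the shRNAs was −0.23 ± 0.0293 (SE), limma adjusted p = 0.00369. *TRIB3*, *PSAT1*, *SHMT2* and *SLC3A2* also rose, while the amino acid transporter genes *SLC7A5* and *SLC7A11* and the serine synthesis gene *PHGDH* had log2 fold changes of −0.00351, −0.05 and 0.00487. *CHAC1* and *SESN2* did not pass the test, at 0.12 and 0.06 (limma adjusted p = 0.0757 and 0.443).

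Transcript length moved with the fold changes, in the family as in all genes. Over 12090 tested genes with a length, Spearman's rho between length and the pooled log2 fold change was −0.445, and over the 20 cytosolic and the 16 mitochondrial genes it was −0.626 and −0.600. These are correlations across genes of the same libraries, and genes are not independent replicates. Cytosolic genes that rose had a median length of 2614 bases and those that did not had 3544 bases. Among transcripts of up to 3000 bases 8 of 11 cytosolic and 2 of 10 mitochondrial genes rose, against 21.3% of all tested genes of that length. Among longer ones 2 of 9 cytosolic genes (*FARSB* and *YARS1*) and 0 of 6 mitochondrial genes rose, against 5.67% of all. With each library's length trend removed, 9 cytosolic genes and 1 mitochondrial gene rose, where 6.83% of all tested genes did. *IARS1* was then called (log2 fold change 0.12, adjusted p = 0.00548 by limma), and *CARS1*, *FARSA* and *CARS2* were not. The median log2 fold change was then 0.07 over the cytosolic and 0.03 over the mitochondrial genes, and after quantile normalization it was 0.04 over the cytosolic genes. The part of length in the rises was not tested beyond these values.

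**Figure D5:**
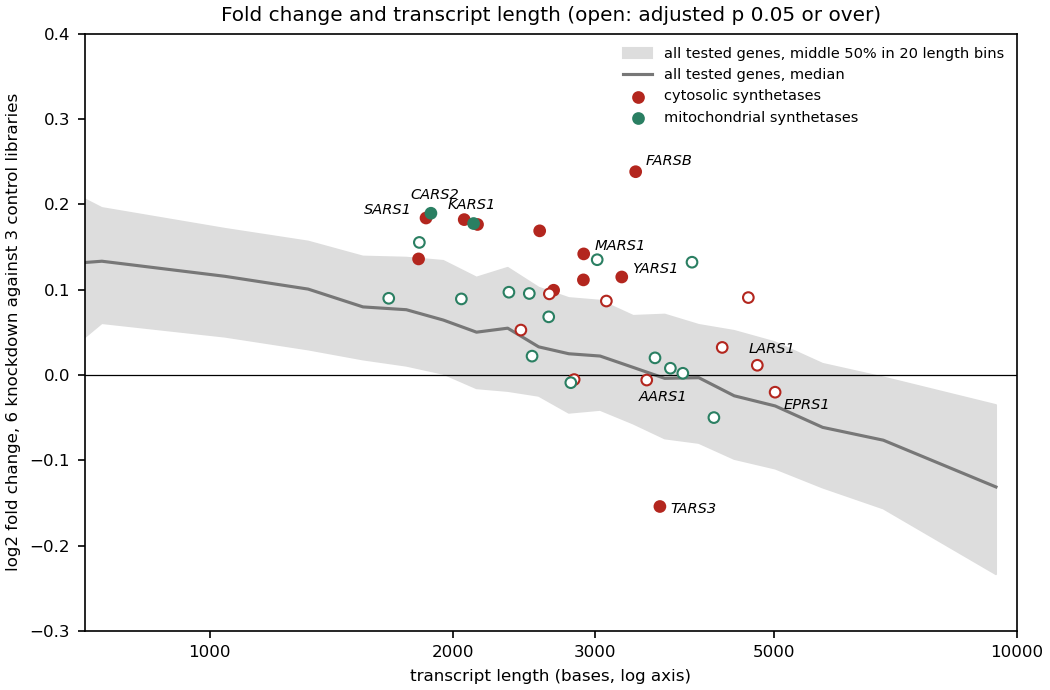
Pooled log2 fold change (6 knockdown against 3 control libraries) against transcript length (bases, log axis) for the 36 synthetase genes, over the median and the middle 50% of all tested genes in 20 length bins, the shortest of which lies left of the axis. The line for all genes falls with length. *FARSB*, *KARS1*, *SARS1*, *MARS1*, *YARS1* and *CARS2* are among the genes above the grey band. *TARS3* lies below the band, and *EPRS1*, *LARS1* and *AARS1* lie inside it.

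Some values rest on how transcripts were assigned. *VARS1* is listed at 7 contigs, alternate copies of the major histocompatibility region included, and its copy on the primary chromosome held 14.0% to 14.3% of the summed FPKM. The primary copy of *VARS2*, at 6 contigs, held 15.4% to 15.6%, and that of *CARS1*, at 2 contigs, 51.3% to 51.7%. Each level summed over these copies depends on how reads were shared among them. With primary chromosomes only, the number of members called was again 12 higher and 1 lower, and the primary copy of *CARS1* gave 18.4 ± 0.708 FPKM (SD, n = 3) for control and 19.7 ± 0.450 FPKM (SD, n = 6) for knockdown cells.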

How the data were processed

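RNA-seq of DU145 cells was deposited as 1 FPKM table per library, made by the authors from their reads with STAR and Cufflinks according to the submitters' processing notes. The notes name hg38 and the study's methods name mm10, and the loci in the tables are human hg38 positions. Versions and the strand setting of the quantification are not given in the sources used here. Since FPKM hold no read numbers, the tests were made on the log scale. Depth and the fragments behind a gene were estimated from the confidence bounds that Cufflinks printed beside each FPKM.

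RefSeq accessions were matched to symbols (72639 of 73240, the 601 others holding 0.390% to 0.436% of the summed FPKM), and FPKM were summed per gene. Genes averaging 1 FPKM or more were fitted as log2(FPKM + 1) with limma 3.58.1 in R 4.3.3, with a trend in the prior variance, in a model of knockdown against control and in a model of the 3 groups, with Benjamini-Hochberg adjustment over all 12507 genes. The scripts were tested on simulated data. Single values were compared by an exact permutation test. Promoter windows came from RefSeq (GRCh38.p14), and 10 motifs were searched.

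The 36 members and all gene lists were chosen with earlier results of these data known. Genes given in full were the largest called changes of each compartment in the pooled comparison, those that differed between the shRNAs, the genes of both locations, and the highest and lowest expressed of each compartment. Alternatives covered the pseudocount (0.1 and 0.01), the filter (none, and 5 FPKM), median centring, quantile normalization, removal of each library's length trend (lowess, span 0.3), a replicate block, primary chromosomes only, coding transcripts only, and leaving out each of the 9 libraries.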

Additional observations from a re-analysis of the deposited data

Results flagged for a closer look

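In *TARS3* the highest of the 6 knockdown libraries, shRNA2 replicate 2, stood apart from the others, with a gap to its neighbour of 0.891 of the whole range. Of 16 genes tested for such a sample this was the only one, and chance flags about 1 group in 20, or 0.8 expected here. At 4 genes expression differed between the shRNAs in limma's test of the difference itself, shRNA2 against shRNA1. Of all tested genes 1.96% were higher and 5.05% lower with shRNA2. Whether the differences at these 4 genes come from *FZD6* or from the hairpins themselves was not tested. The log2 difference was −0.34 for *WARS2*, 0.19 for *EARS2*, −0.18 for *HARS1* and 0.17 for *QARS1*, with adjusted p-values of 0.00155, 0.0174, 0.00645 and 0.0135 by limma. For *WARS2* the shRNAs moved in opposite directions in all 6 libraries.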

How the results depend on the processing

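The number of genes called higher was 12, compared with 6 after quantile normalization, 7 in the fit with the replicate block and the length trend removed (*IARS1* among them, which was not one of the 12), and 9 to 14 when 1 library was left out. The 1 call lower, *TARS3*, was 0 with no filter and 0 with the 5 FPKM filter, which removed the gene from the test. The count was also 0 in both fits with the replicate block, and it stayed at 1 when only the length trend was removed. With 1 library left out it was 0 to 1, and the call held without shRNA2 replicate 2 and in no other case. With shRNA1, 14 genes were called, 8 after quantile normalization and 9 to 18 with 1 library left out (9 without shRNA1 replicate 3). Between the shRNAs 4 were called, and 2 to 5 with 1 library left out (2 without shRNA1 replicate 1, 5 without shRNA2 replicate 2). With shRNA2 the count stayed within 1.5 times of 14 under every alternative, at 11 to 19. The cytosolic median log2 fold change was 0.0411 after quantile normalization and 0.0681 with the length trend removed, without or with the replicate block, and the mitochondrial median was 0.0319 with the trend removed in both fits. Values near 0 changed sign: *IARS2* was −0.0287 after quantile normalization and −0.00463 to 0.0380 with 1 library left out, and by the same omission *QARS1* was −0.0321 to 0.0171 and *WARS2* −0.0505 to 0.0307. Among the genes called higher, *CARS2* kept its call in 6 of 20 alternatives, *CARS1* in 9, *FARSA* in 15, *WARS1* in 16, *TARS1* in 18, *MARS1*, *YARS2* and *FARSB* in 19, and the other 4 in all 20. Of genes not called, *GARS1* gained a call in 1, *SARS2* in 1, *IARS1* in 5 and *RARS2* in 6, while the *EARS2* difference between the shRNAs lost its call in 4 and that of *QARS1* in 2. Over all genes 2701 were called, 1536 with the length trend removed, 1209 with the replicate block added to that, and 1372, 1231 and 1681 when control replicate 1, 2 or 3 was left out. The causes were not tested.

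The labels number the libraries 1 to 3 in each group. Deviations from the group means correlated at −0.0710 to 0.111 between libraries of the same number (9 pairs) and at −0.123 to 0.184 between different numbers (18 pairs), so the numbers were not taken as pairs. With the replicate block 13 genes were called higher and 0 lower of the 36, and 2552 of all genes. Low levels limit precision most for *MARS2*, *PARS2* and *TARS3*.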
